A study of Mus musculus with 18 samples.

Results

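In bisulfite-treated RNA of samples labelled as neurons, 183 cytosines of mRNA were listed as m5C sites in at least 2 of the 3 libraries of each of 3 groups. They were chosen by this rule from 25890 distinct sites in 9 libraries, of which 18059 lay in an exon of a protein-coding RefSeq transcript on the same strand. The 183 shared sites fell in 112 genes, and 107 of them were listed in all 9 libraries. Since calls in these libraries selected the sites, their presence in the 3 groups is a description and was given no test.

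The samples are labelled as cortical neurons of C57BL/6 mouse embryos at day 18. Control neurons were left untreated. OGD/R 1.5 h and OGD/R 3 h neurons were kept without oxygen and glucose for 1.5 h or 3 h and then reoxygenated for 24 h, a culture model of ischemia and reperfusion (the gas mixture stated for the deprivation adds up to more than the whole). Each group had 3 libraries, which the study describes as replicates of the sequencing pool, and whether they came from separate cultures is not given in the sources used here, so the spread between them may be technical. A library listed 5423 to 7772 sites, the most in OGD/R 3 h. How deeply each library was sequenced is unknown.

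m5C is a cytosine with a methyl group on carbon 5. Enzymes of the NSUN family and DNMT2 place it on tRNA and rRNA, where it steadies structure, and NSUN2 and NSUN6 also place it on mRNA, where ALYREF and YBX1 can bind it and act on export and stability. Bisulfite turns unmethylated cytosine into uracil and leaves m5C, so that a cytosine in a read counts as methylated. Cytosines in tightly folded RNA can also escape the conversion.

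The value of a site in a library is its score, which corresponds to the call score of meRanCall multiplied by 10, kept as a whole number and never above 1000. It grows with coverage and methylation level at the same time, so neither can be read from it. A site that a library did not list has no value there, which is not the same as a score of 0. Differences between groups are differences of mean log2(score + 1) over the libraries that list the site.

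Of the 183 shared sites, 49 lay in 3 dense stretches of 3′ untranslated region, where the sequence is that of, or resembles, another RNA. The 30 sites of Lars2, the mitochondrial leucyl-tRNA synthetase, covered 150 nt at chr9:123461968-123462117 (mm10, plus strand), a place known to hold a repeat like large-subunit rRNA. The 16 sites of Tmem38b, a cation channel of the endoplasmic reticulum, lay at chr4:53860695-53860769 within an annotated 5S rRNA gene. The 3 sites of Vmp1, an autophagy protein, lay at chr11:86584129-86584138 on the minus strand, inside the Mir21a hairpin and within mature miR-21a-5p. Reads of these RNAs and of the host mRNAs cannot be told apart here. The other 134 sites, which lay in 109 genes, are therefore described apart from them, and most results below are for these 134.

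Parts of both rRNA-like stretches are shown because they hold the densest runs, with shared sites in capitals (mm10, chr9:123462011-123462040 and chr4:53860740-53860769). The mature microRNA is shown with its seed, bases 2 to 8, in capitals (RefSeq, mm10, chr11:86584120-86584141, minus strand).
Lars2: atCCttCgatgtCggCtCttCCtatCattg
Tmem38b: gaCCgCCtgggaataCCgggtgCtgtaggC
miR-21a-5p: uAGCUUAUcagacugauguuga

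All 9 cytosines of the Lars2 run and all 8 of the Tmem38b run were shared sites. Between the first and the last shared site, 30 of 36 cytosines were shared in Lars2 and 16 of 16 in Tmem38b. The 3 cytosines of miR-21a-5p, at bases 4, 9 and 13, were all shared, and each scored 1000 in all 9 libraries. These spans begin and end at a shared site, so a high share is partly built in. Over the whole 5S rRNA gene, a library listed 16 to 23 of 32 cytosines, and over the whole Mir21a hairpin 3 to 4 of 19.

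**Figure D1:**
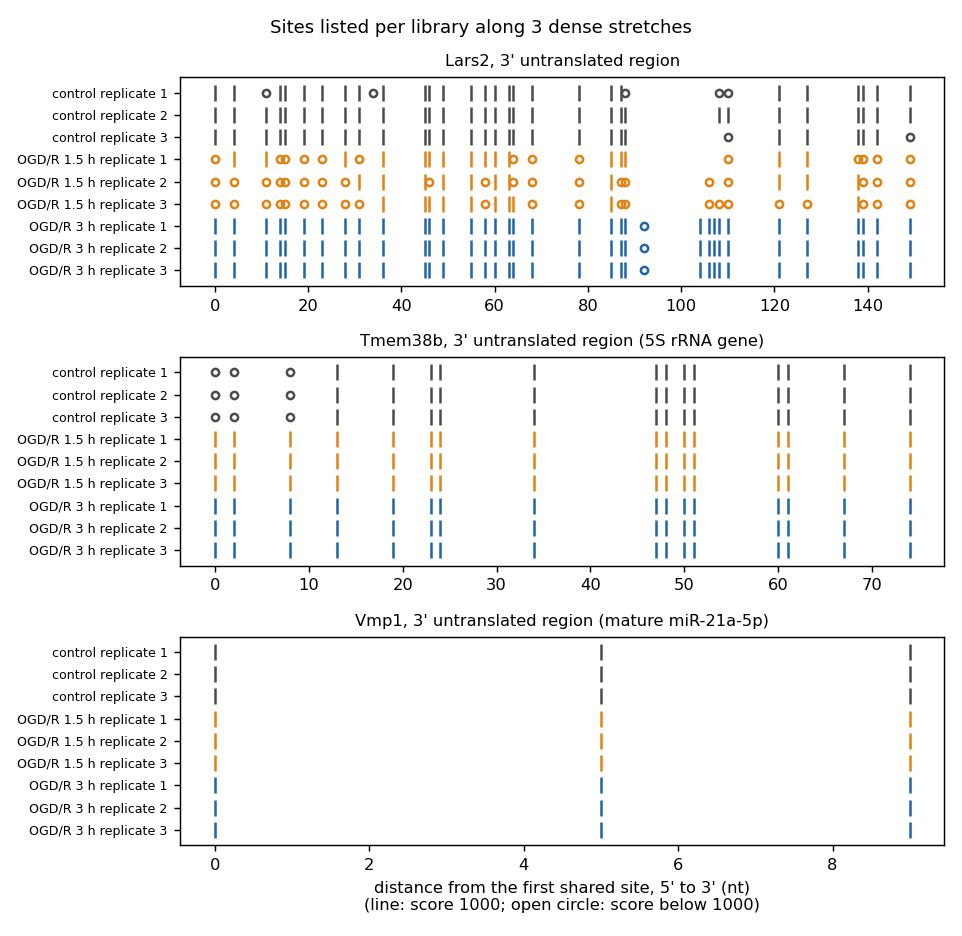
Sites listed in each of the 9 libraries (rows) along the stretches of Lars2, Tmem38b and Vmp1, by distance in nt from the first shared site, with a line for a score of 1000 and an open circle for a lower score. All listed sites are drawn, including those that are not shared. The Lars2 scores below 1000 lie mostly in OGD/R 1.5 h, and all Vmp1 sites are at 1000.

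The Lars2 sites were at 1000 for 27, 30 and 28 of 30 sites in the control libraries, for 16, 11 and 10 in OGD/R 1.5 h and for all 30 in each OGD/R 3 h library. Within Tmem38b, 13 of 16 sites were at 1000 in each control library, against all 16 in every OGD/R library. The lowest score of a shared site in the stretches was 69, in Lars2. Apart from Lars2 in OGD/R 1.5 h, the scores of these sites were therefore mostly held at the upper limit, where differences between groups are hidden. The stretches have up to 9 near copies (Lars2) and up to 113 near copies (Tmem38b) elsewhere in mm10. Of the other 134 sites, 20 had a near copy and 114 had none.

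Markers of the labelled cell type and of others were looked up next, in lists drawn up with earlier results of these data known. None of 15 neuronal marker genes, among them Tubb3, Map2, Rbfox3 and Syn1, carried a site in any library, and no site says nothing of expression. By contrast, 13 to 17 of 20 marker genes of intestinal epithelium carried a site in each library, with 107 to 115 sites in control, 69 to 76 in OGD/R 1.5 h and 211 to 233 in OGD/R 3 h. Of these 20 genes, 6 held a shared site (Epcam, Apoa1, Apoa4, Apob, Lgals4 and Fcgbp). Of all 21013 protein-coding genes, 439 had a site in all 3 groups and 112 held a shared site. Of 10 markers of smooth muscle and fibroblasts, 3 to 6 carried a site in a library and 1, Myh11, held a shared site. Of 10 markers of astrocytes and oligodendrocytes, at most 1 carried a site in a library. Erythroid and neutrophil markers had no site in control and OGD/R 1.5 h, and in each OGD/R 3 h library 31 and 21 sites. They held no shared site. The marker genes that carried sites thus go against the labelled cell type in all 9 libraries, and the samples are called by their labels below. Fewer cells of a type and less RNA per cell cannot be told apart in these libraries, and the part of other cells in the shared sites was not tested.

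Outside the stretches, 7 sites are printed first, 21 nt each with the listed cytosine in capitals, because they were among those with the highest lowest score over the 9 libraries. The windows are genomic sequence of mm10 on the strand of the mRNA, each inside 1 exon.
Apoa4: gaacaggcagCtggagcagca
Lgals4: gacaatggggCaaggaagaga
Fcgbp: gtagaagtggCtgtgcgaagg
Apoa1: aaggtggcgcCtctgggcgcc
Muc13: gcatgccgggCtaccagaggg
Epcam: gctgatgtggCttactatttt
Fth1: ggagagcgggCtgaatgcaat

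The sites are at chr9:46242988 (Apoa4), chr7:28835947 (Lgals4), chr7:28086689 (Fcgbp), chr9:46230038 (Apoa1), chr16:33811857 (Muc13), chr17:87643624 (Epcam) and chr19:9984590 (Fth1), all on the plus strand and in coding sequence. The cytosine often follows guanines, and in Apoa4, Fcgbp and Fth1 it begins CTG.

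Shared sites were a small part of each group. At least 2 libraries listed 3197 mRNA sites in control, 2476 after OGD/R 1.5 h and 3898 after OGD/R 3 h, and the 183 shared sites were 5.72%, 7.39% and 4.69% of these. Control and OGD/R 1.5 h had 569 such sites in common, control and OGD/R 3 h 487, and both OGD/R groups 421. In the same order, the remaining group held 32.2%, 37.6% and 43.5% of these pairwise sites as well. In comparison, 928 mRNA sites met the rule in exactly 2 groups and 7166 in exactly 1 group.

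**Figure D2:**
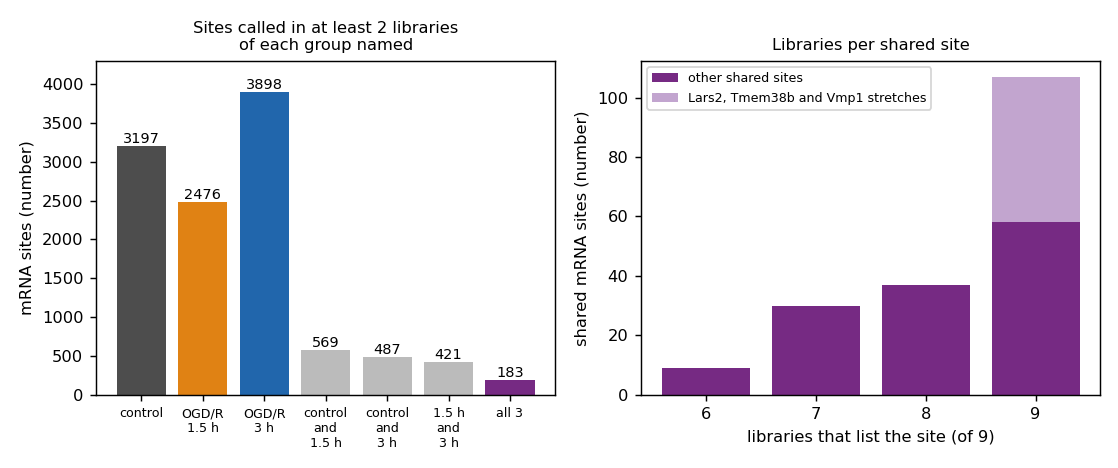
Left, number of mRNA sites listed in at least 2 libraries of each group named, alone or in common with the other groups named. Right, number of the 9 libraries that list each of the 183 shared sites, with the 49 sites of the dense stretches in the lighter colour, all of them in 9 libraries.

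Outside the stretches, 58 of the 134 sites were listed in all 9 libraries, 37 in 8, 30 in 7 and 9 in 6. A library listed 165 to 174 of the 183 sites, and these made up 3.17% to 4.89% of its mRNA sites. The median score of the 134 sites in a library was 26.5 to 55, against 7 to 13 over all its mRNA sites. Whether a site is listed and its score both depend on coverage, so the higher scores are no finding.

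The values on both sides of the rule are as follows. Just inside, 9 sites were listed in exactly 2 libraries of every group. Among them, Cldn7, a claudin of tight junctions, scored 111 and 52 in control, 152 and 276 after OGD/R 1.5 h and 44 and 114 after OGD/R 3 h. Atp5e, a subunit of ATP synthase, scored 66 and 123, 27 and 123, and 16 and 34 in the same order. Ap3d1 at chr10:80712846, a subunit of the AP-3 adaptor, scored 23 and 25, 32 and 6, and 3 and 14. Just outside, 225 sites were listed in at least 2 libraries of 2 groups and in 1 library of the third. Those with the highest mean lay in or within 10 nt of the dense stretches. Tmem38b at chr4:53860690 scored 1000 in the 7 libraries that listed it. Lars2 at chr9:123461959 scored 1000 and 941 in control, 694 in 1 OGD/R 1.5 h library and 1000 in each OGD/R 3 h library. A further Lars2 site, at chr9:123462076, scored 99 and 1000, 110, and 1000 in each library in the same order of groups.

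Genes with sites in all groups mostly did not share a position. At least 2 libraries of each group listed a site in 439 genes, and in 112 of these, 25.5%, the position was shared. The remaining 327 genes had no position common to all 3 groups. The 109 genes outside the stretches held 1753 sites listed in at least 2 libraries of any group, of which 134 were shared, or 7.64%. They carried a median of 10 sites, against 2 in genes with a site but no shared one. A gene with more listed sites has more chances to share one, so this difference is no finding. In 6 of the 109 genes the shared site was the only one.

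After Lars2 and Tmem38b, Actb held the most shared sites, with 4, followed by Apoa4, Vmp1, Fcgbp, Prkce and Canx with 3 each, and 90 genes held 1. Actb, cytoplasmic beta-actin, had 96 sites in all and shared 4.17% of them, all in its 3′ untranslated region, with 2 to 7 near copies elsewhere in the genome. Fcgbp, a mucus protein, had 75 sites and shared 4%, and Ncor1, a nuclear corepressor with 64 sites, shared 2, or 3.12%. Prkce, protein kinase C epsilon, was different in that it had 3 sites and shared all 3. They lie within 6 nt of its 3′ untranslated region, shown here in 30 nt (chr17:86657349-86657378) with the shared sites in capitals.
Prkce: gtggcagaactCttgCCtggctggtgtgaa

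The surrounding sequence of the 134 sites was rich in guanine and poor in cytosine. Guanine was found at 57.5% of the bases 3 nt before the site, 55.2% of those 2 nt before and 46.3% of those directly before. At the same places it made up 40.8%, 40.5% and 36.4% around sites of exactly 1 group, and 24.97%, 25.5% and 25.2% around all 101846 cytosines of those transcripts. After the site, thymine followed directly in 49.3% of the 134 sites, against 30.6% and 29.5%, and guanine stood at the second base in 59.0%, against 46.2% and 28.1%. Cytosine, in turn, made up only 9.70% of the bases 3 nt before the site, against 23.0% and 27.9%. These are shares over sites chosen by their calls, in reads where unmethylated cytosine had been converted, and were given no test.

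**Figure D3:**
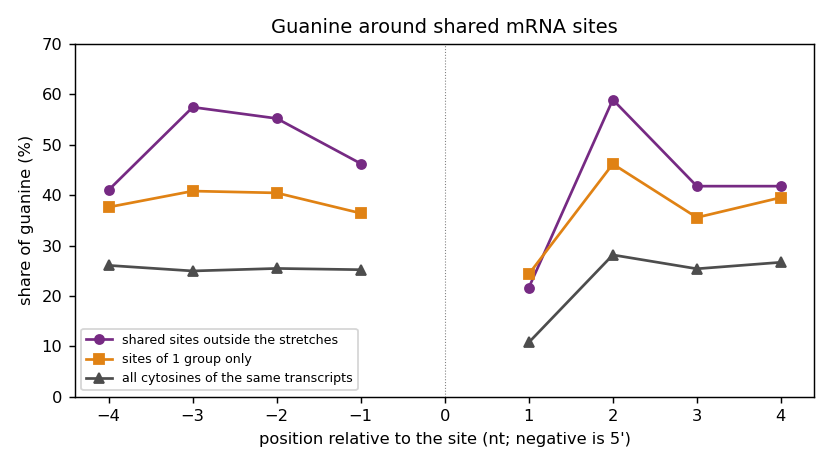
Share of guanine in percent at 4 nt on either side of the site, for the 134 shared sites outside the stretches, the 7166 sites of exactly 1 group and all cytosines of the transcripts that hold the 134 sites (position 0, the site itself, is left out). The shared sites lie highest at every position but the base directly after the site.

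The trinucleotide CTG, with the site at its first base, held 48 of the 134 sites, or 35.8%. It held 27.0% of the sites in exactly 2 groups, 18.6% of those in exactly 1 group and 10.8% of all cytosines. With a guanine in front, as GCTG, it alone held 28 sites, or 20.9%, against 7.19% and 3.14% for sites of 1 group and for all cytosines. Accordingly, CHG (H being A, C or T) was the most frequent context, with 50% of the 134 sites, and CG held 21.6% and CHH 28.4%. Over all 183 sites these shares were 44.3%, 22.4% and 33.3%. Sites of exactly 1 group were in CHG in 38.1%, in CG in 24.3% and in CHH in 37.6%. Among all cytosines, CHH was by far the most frequent, with 64.5%.

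The motifs described for both mRNA methyltransferases were rare. CNGGG, described for NSUN2 and searched on the strand of the site with the site at its first base, was found at 4 of the 134 sites, or 2.99%, and at 8 of all 183, or 4.37%. It was found at 5.06% of sites in exactly 2 groups, at 3.36% of those in 1 group and at 1.92% of all cytosines. CTCCA, described for NSUN6, was found at 0 shared sites, at 0.431% and 0.419% of the sites of 2 groups and of 1 group, and at 0.720% of all cytosines. A motif that is absent in these letters says nothing about the enzyme.

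Most of the 134 sites lay in coding sequence, with 100 there, 20 in 5′ untranslated and 14 in 3′ untranslated region. With regions of 100 nt on either side of the start and stop codons set apart, 59.7% lay in the rest of the coding sequence, 20.9% at the start codon, 3.73% at the stop codon, 5.97% in the rest of the 5′ and 9.70% in the rest of the 3′ untranslated region. Around the start codon lay 24.2% of the sites in exactly 2 groups and 33.4% of those in exactly 1 group, against 5.79% of all cytosines. Among all cytosines, 59.4% lay in the rest of the coding sequence, close to the 59.7% of the 134 sites. In the rest of the 3′ untranslated region lay 24.96% of all cytosines, against 9.70% of the 134 sites. With the dense stretches included, 54.6% of the 183 sites were in coding sequence and 34.4% in 3′ untranslated region, or 43.7% and 33.9% with the codon regions set apart.

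In the coding sequence, 40 of the 100 sites were at the first codon position, 24 at the second and 36 at the third. The cytosine of the leucine codon CTG was the most frequent with 24 sites, or 24%, against 9.44% of the coding sites of 1 group and 4.83% of all coding cytosines. The third base of GAC (aspartate) held 14 sites, the second base of GCT (alanine) 10 and the third base of GGC (glycine) 10. Sites of this leucine codon are shown because they recur in unrelated proteins, with the cytosine in capitals.
Iqgap2: cctgcggacgCtggagcagac
Myh11: gcaggaccagCtggatgagga
Msn: gatggagaagCtgaagcagat
Ywhae: ggacgtggagCtgacagttga

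These sites are at chr13:95635529 (Iqgap2, minus), chr16:14208051 (Myh11, minus), chrX:96163458 (Msn, plus) and chr11:75751925 (Ywhae, plus). The proteins range from a smooth muscle myosin and moesin, which links actin to the membrane, to a 14-3-3 protein. Iqgap2, a scaffold that binds calmodulin, scored 159, 404 and 480 in control, 169, 539 and 497 after OGD/R 1.5 h and 112, 195 and 267 after OGD/R 3 h, with overlapping groups.

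A neighbour counted here if any of the 9 libraries listed it, whether or not that library listed the site itself. Why the shares below differ was not tested. Of the 134 sites, 108 had another listed site within 10 nt on their strand in some library, or 80.6%, against 80.1% of the sites of 2 groups and 72.2% of those of 1 group. Inside a library, 19.1% to 27.3% of the other cytosines within 10 nt of a shared site were listed too, and 10.4% to 20.2% beside the sites of 1 group. The share was higher beside shared sites in 7 of 9 libraries, the exceptions being OGD/R 3 h replicates 2 and 3. The share of sites with any listed neighbour was lower for shared sites in all 3 OGD/R 3 h libraries, at 41.4% to 44.3% against 52.1% to 53.5%.

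Scores of the shared sites differed little in rank between groups. Over the 134 sites, Spearman's rho of the group means was 0.83 between control and OGD/R 1.5 h, 0.76 between control and OGD/R 3 h and 0.76 between OGD/R 1.5 h and OGD/R 3 h, where all points share the abundance of the transcript. Within a group, the range of log2(score + 1) over the libraries had a median of 1.37, and over all libraries a median of 3.49. The value of 1.37 is a range of single scores, pooled over sites with low and high scores. It is therefore only a rough guide to the size of a difference between group means at a given site. Lgals4, for instance, differed from control by only 0.38 in OGD/R 1.5 h and -0.18 in OGD/R 3 h, with no overlap between groups.

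For OGD/R 1.5 h and control, the question was whether scores of sites listed in all groups differed after the shorter deprivation. The median difference was 0.00, both over the 183 and over the 134 sites. Every score of OGD/R 1.5 h was above every control score at 20 of the 183 sites and below at 35, or at 17 and 24 of the 134. Among all 1350 sites of any annotation listed in at least 2 libraries of both groups, 22.4% were higher without overlap and 12.1% lower. For mRNA sites outside the stretches these shares were 12.3% and 16.0%, and for the 134 sites they were 12.7% and 17.9%, near those of mRNA sites in general.

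For OGD/R 3 h and control, which the study compared, lower scores were the more frequent. The median difference of the 134 sites was -0.55, with quartiles of -1.69 and 0.37. That of the 183 sites was 0.00, since the stretches were mostly at the upper limit in both groups. At 12 of the 134 sites every OGD/R 3 h score was above every control score, and at 39 every one was below. Among all 1174 sites listed in both groups, 33.8% were higher and 11.1% lower, with a median difference of 0.23. Among the 436 mRNA sites outside the stretches, 13.99% were higher and 22.9% lower, with a median of -0.33, against 8.96% and 29.1% of the 134. The OGD/R 3 h libraries listed the most sites and had the highest median log2 score over all sites, at 4.52 to 4.81 against 3.91 to 4.09 in control. With each library centred on this median, the difference of the 134 sites was -1.16. The median is over all sites a library listed, and these differ between libraries, so the centred value also depends on which sites were listed.

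Between both OGD/R groups, the split was similar, and this contrast shares its libraries with the others. The median difference of the 134 sites was -0.67. At 12 sites OGD/R 3 h was higher without overlap and at 40 lower, or 8.96% and 29.9%. Over all 1257 sites listed in both groups, 30.7% were higher and 11.1% lower, and over mRNA sites outside the stretches 13.8% and 20.1%. Including the stretches, 23 of the 183 sites were higher, 11 of them in Lars2, where the OGD/R 1.5 h scores were below the limit.

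**Figure D4:**
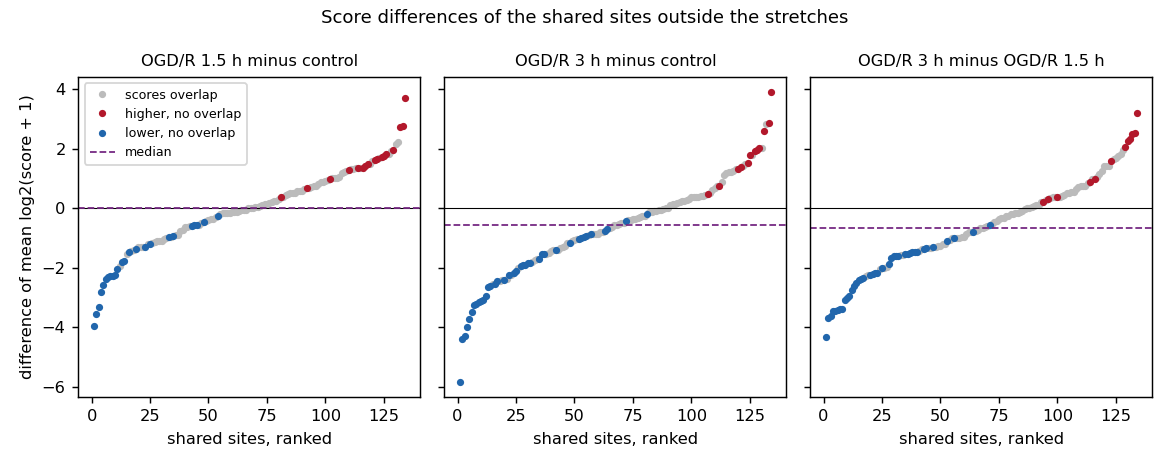
Differences of mean log2(score + 1) for the 134 shared sites outside the stretches, ranked in each of the 3 contrasts, with sites whose scores do not overlap in red (higher) or blue (lower) and the median as a dashed line. The median is at 0.00 for OGD/R 1.5 h minus control and at -0.55 and -0.67 in the contrasts of OGD/R 3 h, where lower sites without overlap outnumber higher ones.

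At 22 of the 183 sites, all of them among the 134, OGD/R 3 h was below both other groups in every library that listed the site, and at 4 it was above both. Over all 699 sites of any annotation that met the rule, 4.29% were below and 24.2% above. Of the 6 intestinal markers with a shared site, Lgals4 was among the 22, while Apoa1, Fcgbp and Apoa4 held 3 of the 4 sites above both.

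For comparison with those above, sequences of some sites with their lowest mean log2(score + 1) in OGD/R 3 h are shown. They are not a ranking. Ap3d1 at chr10:80712848 (-3.99 from control) and Prr15 (-3.73) lay further below control than Ctnnd1 (-3.15). Of the sites described next, Reg3b and Mep1b were outside the named rule and were chosen after their values were seen.
Reg3b: gtaacaatgaCgtgatgaatt
Smim24: agaaggtggaCaggaagggcg
Ctnnd1: aggaaagatcCtggaacgagg
Eif3a: tcctggagagCtgagaaagat
Myo18a: agatggcgggCggaaggagaa
Ptms: gagaatggagCtgaggaagag

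Reg3b at chr6:78372856, plus strand, a lectin that binds bacteria, scored 1000 in each control library, 756, 694 and 714 after OGD/R 1.5 h and 197, 82 and 247 after OGD/R 3 h. The 3 groups did not overlap, and the order was control, OGD/R 1.5 h, OGD/R 3 h. Smim24 at chr10:81394809, plus strand, a small membrane protein, scored 1000 in each control library, 663, 1000 and 1000 after OGD/R 1.5 h and 389, 242 and 430 after OGD/R 3 h. Mep1b, a metalloprotease of the brush border, scored 1000, 1000 and 933, then 1000, 825 and 1000, and in OGD/R 3 h 81 and 152 in the 2 libraries that listed it. In both genes OGD/R 3 h stood apart and the other groups overlapped. The control scores at 1000 are held at the upper limit, so these differences are understated.

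Ctnnd1 at chr2:84650520, minus strand, in the 5′ untranslated region of the mRNA of p120 catenin, scored 1000, 956 and 515 in control, 652, 881 and 657 after OGD/R 1.5 h and 46, 119 and 124 after OGD/R 3 h. The difference of OGD/R 3 h from control was -3.15. Eif3a at chr19:60762157, minus strand, a subunit of the initiation factor eIF3, scored 481, 583 and 292, then 1000, 887 and 717, then 23, 61 and 370. OGD/R 1.5 h lay above both other groups there, while OGD/R 3 h and control overlapped.

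Without overlap, the lowest difference from control was at chr6:124914697, minus strand, in Ptms, which encodes parathymosin, a small acidic nuclear protein. It scored 229 and 171 in control, 21, 79 and 30 after OGD/R 1.5 h and 2 and 3 after OGD/R 3 h, a difference of -5.84. The OGD/R 3 h scores were near the bottom of the scale, in 2 libraries. Myo18a at chr11:77777358, plus strand, an unconventional myosin, scored 248, 194 and 147, then 86, 518 and 136, then 12, 14 and 3, and differed by -4.39 from control and by -4.32 from OGD/R 1.5 h. A neighbouring Myo18a site, at chr11:77777354, was at 74, 116 and 86, then 147, 138 and 155, then 14, 16 and 27. It lies 4 nt from the first, and OGD/R 3 h was below both other groups at both. Brpf3 at chr17:28821537, a protein of histone acetyltransferase complexes, scored 61 and 98, then 7, 45 and 30, then 3 and 3, a difference of -4.29. The OGD/R 3 h scores of this site, as those of Ptms, were near the bottom of the scale. Its neighbour 1 nt on, at chr17:28821538, scored 7 and 27, then 6 and 25, then 16, 3 and 114, and overlapped.

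**Figure D5:**
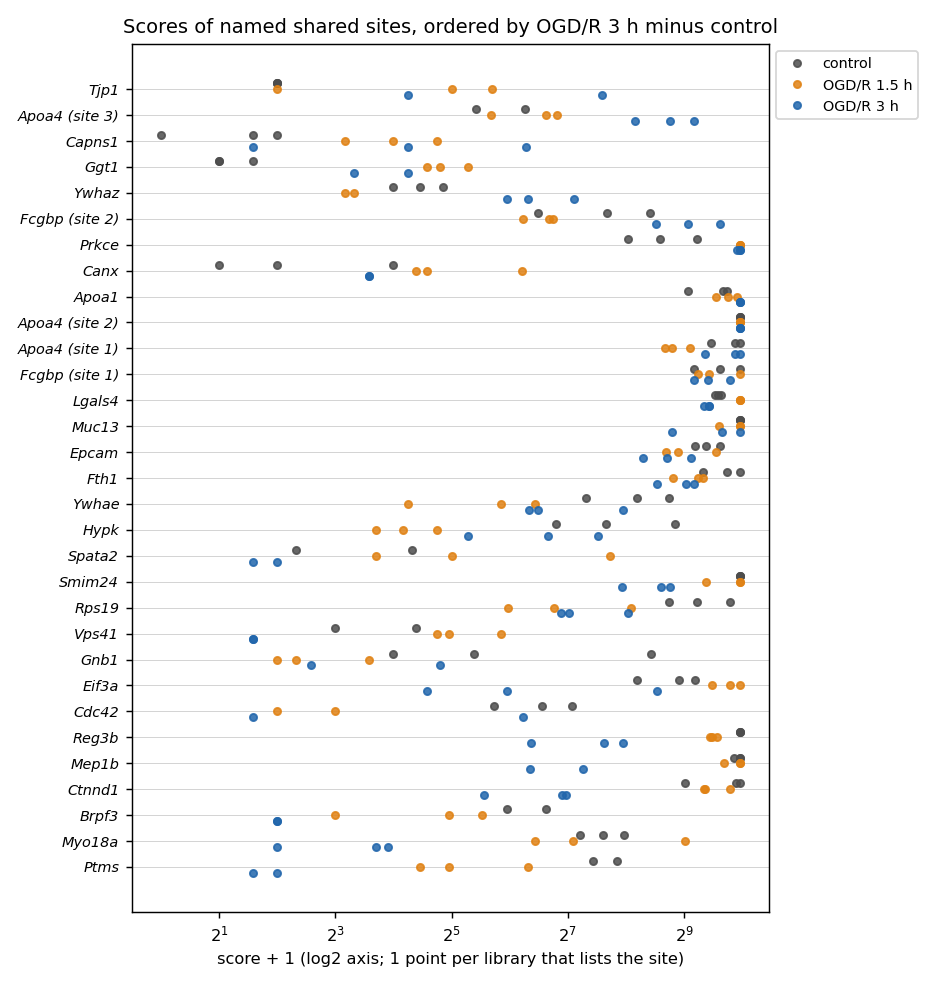
Score + 1 on a log2 axis in each library that lists the site, for named shared sites outside the stretches, ordered by the difference of OGD/R 3 h from control, with control in grey, OGD/R 1.5 h in orange and OGD/R 3 h in blue. OGD/R 3 h lies to the left of control at the bottom of the plot (Ptms, Myo18a, Brpf3, Ctnnd1, Mep1b, Reg3b) and to the right at the top (Tjp1, the third Apoa4 site).

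Sites at which OGD/R 3 h lay above control without overlap were fewer. Tjp1 at chr7:65329764, minus strand, the tight junction protein ZO-1, scored 3 in each control library, 51, 31 and 3 after OGD/R 1.5 h and 192 and 18 after OGD/R 3 h, a difference of 3.92. Control scores were near the bottom of the scale there, and OGD/R 3 h replicate 1 did not list the site. Apoa4 at chr9:46243141, plus strand, a lipoprotein component made in the intestine, scored 76 and 42, then 98, 111 and 50, then 576, 286 and 434, with OGD/R 3 h above both others and a difference of 2.85. Ggt1 at chr10:75573633, plus strand, in the 5′ untranslated region of gamma-glutamyltransferase, scored 2, 1 and 1, then 23, 27 and 38, then 18 and 9. Control was below both other groups there, by 3.70 and 2.59, at control scores near the bottom of the scale.

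Apoa4 had 3 shared sites that behaved differently. The site at chr9:46242988 was at 1000 in all 9 libraries, so nothing can be said of a change. The site at chr9:46242822 scored 708, 1000 and 941 in control, 445, 551 and 405 after OGD/R 1.5 h and 944, 1000 and 656 after OGD/R 3 h, lower in OGD/R 1.5 h than in both others. The site at chr9:46243141, given above, was higher in OGD/R 3 h. The sites below the upper limit thus differed in which group stood apart.

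Of the 3 Fcgbp sites, 1 had a group apart. At chr7:28086689 it scored 1000, 785 and 578 in control, 1000, 692 and 604 after OGD/R 1.5 h and 885, 578 and 677 after OGD/R 3 h, and all groups overlapped. At chr7:28086672, 17 nt upstream, it scored 89, 340 and 204, then 74, 106 and 101, then 784, 537 and 365, and OGD/R 3 h was above both others. The third site, chr7:28085096, scored 219, 984 and 519, then 186, 121 and 593, then 319, 421 and 472, with overlap throughout.

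Other sites of epithelial genes, all with a score above 100 in every library, follow. Apoa1, the main protein of high-density lipoprotein, scored 856, 811 and 533 in control, 751, 863 and 958 after OGD/R 1.5 h and 1000 in each OGD/R 3 h library, which was above both others. Lgals4, galectin-4, scored 741, 795 and 763, then 1000 in each library, then 648, 686 and 691, and no pair of groups overlapped, with OGD/R 1.5 h at the upper limit. Muc13, a membrane mucin, scored 1000 in each control library, 777, 1000 and 1000 after OGD/R 1.5 h and 1000, 807 and 445 after OGD/R 3 h, with overlap. Epcam, an adhesion molecule, scored 662, 789 and 580, then 410, 474 and 745, then 555, 313 and 419, lower after OGD/R 3 h than in control without overlap. Apob, in its 5′ untranslated region at chr12:7977733, scored 136, 843 and 1000, then 483, 714 and 653, then 111, 172 and 370, lower after OGD/R 3 h than after OGD/R 1.5 h without overlap.

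The lowest differences of OGD/R 1.5 h from control without overlap were at Cdc42, Hypk and Gnb1. Cdc42 at chr4:137328754, minus strand, a small GTPase of cell polarity with near copies in the genome, scored 134, 93 and 52 in control, 3 and 7 after OGD/R 1.5 h and 74 and 2 after OGD/R 3 h, a difference of -3.95 for OGD/R 1.5 h. Hypk at chr2:121457147, plus strand, a chaperone that binds huntingtin, scored 460, 110 and 200, then 17, 26 and 12, then 182, 100 and 38, so that OGD/R 1.5 h alone was below both others. Gnb1 at chr4:155543178, plus strand, a G protein beta subunit, scored 15, 343 and 41, then 11, 3 and 4, then 27 and 5. Its control scores spread more than the groups differed.

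In the other direction, Capns1 at chr7:30194003, the small subunit of calpain, scored 0, 3 and 2 in control, 15, 26 and 8 after OGD/R 1.5 h and 2, 77 and 18 after OGD/R 3 h. Canx at chr11:50304387, minus strand, a lectin chaperone of the endoplasmic reticulum, scored 15, 3 and 1, then 23, 73 and 20, then 11 and 11. Both differed from control by over 2.7 in OGD/R 1.5 h (2.78 and 2.73), at low control scores. Prkce at chr17:86657360 scored 598, 383 and 262, then 1000 in each library, then 1000, 1000 and 957, so control was below both OGD/R groups by 1.35 and 1.33. The Prkce sites 4 and 5 nt on overlapped in all contrasts.

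Between the OGD/R groups, Ywhaz at chr15:36793592, minus strand, in the 5′ untranslated region of a 14-3-3 protein, scored 28, 21 and 15 in control, 8 and 9 after OGD/R 1.5 h and 137, 79 and 61 after OGD/R 3 h. All 3 groups were apart, and OGD/R 3 h exceeded OGD/R 1.5 h by 3.22. A Lars2 site of the dense stretch, chr9:123462078, scored 263, 1000 and 784, then 69, 101 and 242, then 1000 in each library. Spata2 at chr2:167484301, an adaptor of the deubiquitinase CYLD, scored 19 and 4, then 212, 31 and 12, then 2 and 3. Vps41 at chr13:18810452, a subunit of the HOPS tethering complex, scored 7 and 20, then 26, 57 and 30, then 2 and 2. In both genes OGD/R 3 h was the lowest group and OGD/R 1.5 h the highest, though control and OGD/R 1.5 h overlapped in Spata2. The OGD/R 3 h scores were near the bottom of the scale in both.

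The genes were then grouped by function, in 16 lists that were drawn up with earlier results of these data known. Over all genes with a site in all 3 groups, 112 of 439, or 25.5%, had a shared site, and the lists are small beside it. Of 83 cytosolic ribosomal protein genes, 4 had a site in all 3 groups and 3 a shared site. Rps19 at chr7:24888910 scored 427, 598 and 883 in control, 271, 107 and 62 after OGD/R 1.5 h and 260, 117 and 129 after OGD/R 3 h, so control was above both. Rps3, whose site is 7 nt before its start codon, scored 82, 60 and 173, then 182, 131 and 437, then 36, 45 and 126. Rps2, with 29 near copies in the genome, scored from 2 to 39 over the libraries. Of 75 translation factor genes, 8 had a site in all groups and 1, Eif3a, given above, a shared site.

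Of 67 genes of the actin cytoskeleton and myosins, 19 had a site in all groups and 6 of these held 10 shared sites, the most of any list. In OGD/R 3 h, 6 of these sites were below control without overlap and 1 above, and the median difference was -0.96. Over the 134 sites, 29.1% were below, 8.96% above and the median was -0.55. The 6 lower sites include both Myo18a sites given above, which are close neighbours and can lie on the same reads. Tpm1 at chr9:67023188, tropomyosin 1, scored 173, 641 and 772, then 117, 236 and 169, then 62 and 110. Msn, moesin, scored 217 and 164, then 158, 267 and 551, then 104 and 94. Both were lower in OGD/R 3 h than in either other group. The Actb site at chr5:142903394 scored 186, 372 and 233, then 347 and 494, then 444, 464 and 378 and was the 1 above control. Another Actb site, at chr5:142903207, scored 46, 27 and 43, then 412, 12 and 92, then 18 and 19. It was among the 6 lower sites, so the shared sites of Actb did not go the same way. Myo1a, the myosin of microvilli, scored 518, 261 and 147, then 145 and 131, then 139, 8 and 19. Pfn1, profilin, scored 19 to 142 with overlap.

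Of 56 genes of epithelial adhesion and junctions, 10 had a site in all groups and 4 a shared site (Epcam, Ctnnd1, Cldn7 and Tjp1), with values given above. Of 84 genes of chaperones and protein folding, 7 had a site in all groups and 3 of these held 5 shared sites. Hsp90ab1, a cytosolic heat shock protein with 4 near copies, scored 361, 489 and 177, then 684, 331 and 397, then 78, 286 and 158. Hsp90b1, its counterpart in the endoplasmic reticulum, scored 4, 3 and 3, then 69 and 0, then 2, 2 and 3, near the bottom of the scale but for 1 library. No shared site of this list was apart between OGD/R 3 h and control.

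Of 214 genes of vesicle trafficking, 12 had a site in all groups and 5 of these held 7 shared sites, of which 3 were lower in OGD/R 3 h than in control and 0 higher, against 29.1% and 8.96% of the 134. The 3 lower sites were that of Vps41 and a neighbouring pair in Ap3d1, which can lie on the same reads. Ap3d1 at chr10:80712848 scored 104, 162 and 152, then 14, 36 and 69, then 4 and 14. Sec31a at chr5:100388562, of the COPII coat, scored 24 and 43, then 22, 229 and 111, then 22 and 57. Of 136 splicing and RNA-binding genes, 14 had a site in all groups and 3 of these held 4 shared sites, with a median difference of 1.45 in OGD/R 1.5 h and 0.46 in OGD/R 3 h. Hnrnpab scored 46, 13 and 42, then 60, 58 and 110, then 32, 128 and 23. Ddx17 at chr15:79531765, an RNA helicase, scored 16, 6 and 32, then 9, 61 and 171, then 44, 57 and 28, and Hnrnpu 0 to 23. Only the Hnrnpab site was apart from control in OGD/R 1.5 h, and all OGD/R 3 h scores of this list overlapped with control. Over the 134 sites the medians were 0.00 in OGD/R 1.5 h and -0.55 in OGD/R 3 h.

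Of 114 chromatin and transcription regulators, 6 had a site in all groups and 2 of these held 3 shared sites. Chd8, a chromatin remodeller, scored 38, 54 and 46, then 18 and 4, then 7 and 2, with control above both. The Ncor1 sites scored 0 to 16. Of 168 ubiquitin and proteasome genes, 11 had a site in all groups and 2 a shared site. Usp7, a deubiquitinase, scored 38, 81 and 45, then 78, 32 and 191, then 51, 5 and 79. Psme3ip1, which binds a proteasome activator and is no subunit of it, scored 4 to 6 in all libraries that listed it.

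Of 106 respiratory chain genes only Atp5e, given above, had a shared site, and of 379 membrane transporter genes 2 had one. One of them, Atp1b1, the beta subunit of the sodium pump, scored 2, 22 and 18, then 66, 34 and 8, then 13, 9 and 27, with overlap. Of 74 genes of microtubules and their motors, Kif1c scored 12, 49 and 23, then 84, 34 and 86, then 18 and 1, and Dync1h1, the dynein heavy chain, scored 0 to 69. Of 15 glycolytic enzymes, 2 had a site in all groups and only Aldoa had a shared site, at scores of 3 to 36 and with 6 near copies. None of 53 keratins, of 16 m5C writers, readers and erasers or of 27 genes of hypoxia, stress and apoptosis had a shared site, while 2, 1 and 1 of them had sites in all 3 groups but no position common to them.

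Some further sites follow. All but the Fth1 site at chr19:9984590, printed above, were outside the named rule and were chosen after their values were seen. Ppp3ca at chr3:136670277, in the 5′ untranslated region of the catalytic subunit of calcineurin, scored 761, 142 and 147 in control, 656, 656 and 301 after OGD/R 1.5 h and 52, 54 and 33 after OGD/R 3 h, which was below both. Fth1, the ferritin heavy chain, had 2 shared sites. Its site at chr19:9984590 scored 851, 642 and 1000, then 449, 640 and 602, then 523, 372 and 579, with control above both, and its site at chr19:9982917 scored 92, 50 and 172, then 37, 75 and 101, then 175, 169 and 274. Between OGD/R 3 h and control, only the first Fth1 site was without overlap, and the second lay above OGD/R 1.5 h. Ywhae, a further 14-3-3 protein, scored 292, 158 and 426, then 86, 18 and 57, then 89, 80 and 246. The mitochondrial ND4, a subunit of complex I, scored 87 and 57, then 98, 107 and 23, then 25, 39 and 46.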

How the data were processed

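RNA depleted of rRNA was treated with bisulfite and sequenced in 9 libraries. The 9 mock libraries were not analysed here. According to the labels and the study's methods, the authors used CASAVA 1.8, took cutadapt 1.9.3 for trimming and meRanGh for alignment to mm10 (STAR for the input), and called sites with meRanCall from a level of 0.1 and a coverage of 10 upwards. The deposited score was taken as it stands, with no scaling by depth, and depth is unknown.

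Sites were placed on RefSeq transcripts (37880, of 21013 genes) and mm10 sequence with Python 3.11.15, numpy 2.4.6, scipy 1.17.1, pysam 0.24.0 and samtools 1.23.1. A near copy is a match of the 51-nt window elsewhere in mm10 by blastn 2.17.0, with at least 46 nt aligned at 90% identity. The transcript with the longest coding sequence gave the region. The pseudocount was 1. The code was tested on simulated data. Of the 134 windows of 21 nt, 131 lay in 1 exon.

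Named sites were those with the highest lowest score (all in Tmem38b, so the next outside the stretches were added after the data were seen), the 3 largest non-overlapping differences each way per contrast, the smallest ranges, the genes with most shared sites, up to 3 sites per list, and those at the threshold. Members and lists were chosen with earlier results of these data known. No p-value was computed. Some sites are not reported here.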

Additional observations from a re-analysis of the deposited data

Results flagged for a closer look

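At 5 shared sites, every OGD/R 1.5 h score lay on one side of every control score and every OGD/R 3 h score on the other. The difference between both contrasts was not tested, and they share the control libraries. Scores were higher than control in OGD/R 1.5 h and lower in OGD/R 3 h for Lgals4 at chr7:28835947 (0.38 and -0.18 on the log2 scale), Myo18a at chr11:77777354 (0.69 and -2.25), Nedd4 at chr9:72721396 (1.37 and -0.87) and Vps41 at chr13:18810452 (1.49 and -2.11). The opposite order was seen for Ywhaz at chr15:36793592 (-1.19 and 2.02). Nedd4, a ubiquitin ligase, scored 4 and 3 in control, 6 and 18 after OGD/R 1.5 h and 2 and 1 after OGD/R 3 h, in 2 libraries of each group. All but the score of 18 were near the bottom of the scale.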

How the results depend on the processing

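The sources used here give no pairing of libraries between groups, and no paired analysis was made. Every result is a count, share or median that comes from no test. Among alternative values of the results that answer a comparison, 206 stayed within the set limits and 61 moved. The 183 sites became 107 when every library of each group had to list them, 653 with 1 library per group, 121 at a score of at least 10 and 28 with no other site within 10 nt, and the 112 genes became 53, 292, 64 and 27. The share in coding sequence outside the codon regions (43.7%) was 24.3%, 65.7%, 30.6% and 64.3% in that order. Without neighbours, CHG held 64.3% and CHH 17.9%. With codon regions of 50 nt, 9.84% lay at the start codon. The share with a neighbour (85.8%) was 68.9% within 5 nt and 91.3% within 20 nt, and 0 by construction without neighbours.

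The non-overlapping sites of OGD/R 1.5 h against control (20 higher, 35 lower) were 9 and 18 with every library, 171 and 196 with 1 library per group, 12 and 21 at a score of at least 10 and 1 and 5 without neighbours. Those of OGD/R 3 h against control (15 and 39) were 7 and 16, 152 and 224, and 1 and 11 with every library, 1 library and no neighbours, and 9 were higher at a score of at least 10. Those of OGD/R 3 h against OGD/R 1.5 h (23 and 40) were 157 and 233 with 1 library and 3 and 10 without neighbours, and 16 were lower with every library. Sites listed in all 9 libraries gave the values with every library. Without neighbours the medians were -0.41, -0.91 and -0.99 for OGD/R 1.5 h and OGD/R 3 h against control and OGD/R 3 h against OGD/R 1.5 h. Centred on the library median, the last 2 were -0.59 and -0.65. Leaving out each library in turn gave 149 to 161 sites in 86 to 99 genes, and 12 to 29 sites higher in OGD/R 1.5 h than in control, with 12 without OGD/R 3 h replicate 1, 13 without OGD/R 3 h replicate 2 or 3 and 29 without OGD/R 1.5 h replicate 3. Each time, the rule of at least 2 libraries was kept, so a group left with 2 libraries had to list a site in both. Scores of OGD/R 3 h do not enter OGD/R 1.5 h against control, so there only the set of sites could change. Without an OGD/R 1.5 h library, 2 scores of that group were left to compare. Any further reason was not tested.

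Other alternatives were chosen after seeing the data. Without the Lars2, Tmem38b and Vmp1 stretches, this coding share was 59.7%, the medians of OGD/R 3 h were -0.55 against control and -0.67 against OGD/R 1.5 h, or -1.16 and -1.34 when centred too, and 12 sites were higher in OGD/R 3 h than in OGD/R 1.5 h. Without the sites with a near copy, 118 sites were left, with 22.0% at the start codon, 60.2% in coding sequence outside the codon regions, medians of -0.50 and -0.58, 21 sites lower in OGD/R 1.5 h than in control and 12 higher in OGD/R 3 h than in OGD/R 1.5 h. Coverage and level are joined in the score and 1000 is its upper limit, so depth per site is unknown and differences at the limit are hidden.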
